A study of Mus musculus with 4 samples.

Results

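The Bcl2 family of apoptosis regulators was described here by 10 genes chosen by name: the BH3-only genes Bbc3, Pmaip1, Bcl2l11, Bid and Bad, the effectors Bax and Bak1, and the antiapoptotic genes Bcl2, Bcl2l1 and Mcl1. Of these, 9 had a probe set that the platform annotation names for that gene alone, 1 each, out of 19937 genes with such a probe set. Bax had none in the annotation used here and was not analysed. All 9 lay above the filter on dim genes, a log2 value of 6.42, which 13956 genes passed.

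The cells were primary neurospheres grown with FGF-2 and EGF from the walls of the lateral ventricles of C57BL/6 mice aged 9 to 12 weeks. Every culture received non-targeting siRNAs and then, for 5 h, pCLIG-Pax6 virus, which makes them express the neurogenic transcription factor Pax6; no selection of transduced cells is described in the labels. The DMSO group (2 arrays) was kept in 0.01% DMSO. The olaparib group (2 arrays) was kept in 100 nM olaparib, an inhibitor of PARP1 and PARP2, in the same amount of DMSO, from the time of transduction. Both groups then spent 36 h in floating culture and 10 h on laminin without growth factors, and 1 Affymetrix mouse gene array was hybridised per culture. Arrays of a group are biological replicates per the labels, which name no animals for them, so p-values measure only the spread between these samples. The design asks which transcripts differ when PARP is inhibited while neurons are being formed.

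Proteins of the Bcl2 family decide whether the outer mitochondrial membrane stays intact. Effectors form pores in it and release cytochrome c, antiapoptotic members hold effectors and BH3-only proteins, and BH3-only proteins tie up the antiapoptotic members or activate the effectors directly. In newborn neurons of the adult brain this balance sets how many cells survive, and DNA damage acts on it through p53, which induces Bbc3, Pmaip1 and Bax. Most control of Bad, Bid and Bak1 lies in the protein, through phosphorylation, cleavage and binding, which arrays do not read. Bcl2l1, Bcl2l11 and Mcl1 are also spliced into forms of different activity, and 1 gene-level value per array does not tell these forms apart.

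Olaparib cultures had more Pmaip1 and less Bcl2 transcript. Pmaip1, which encodes NOXA, rose 1.52-fold (log2 change 0.60, SE 0.08, adjusted p = 8.15e-05), and Bcl2 fell by 0.39 on the log2 scale (0.763-fold, SE 0.09, adjusted p = 0.013). The other 7 members did not pass an adjusted p of 0.05 in limma. Of 9 members, 1 rose and 1 fell, where 2.84% of all genes tested were called higher and 3.37% lower, or 6.22% either way. The groups did not overlap in 6 of the 9 members, against 47.1% of all genes tested. The median change was 0.11 over the members and 0.0013 over all genes tested.

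**Figure D1:**
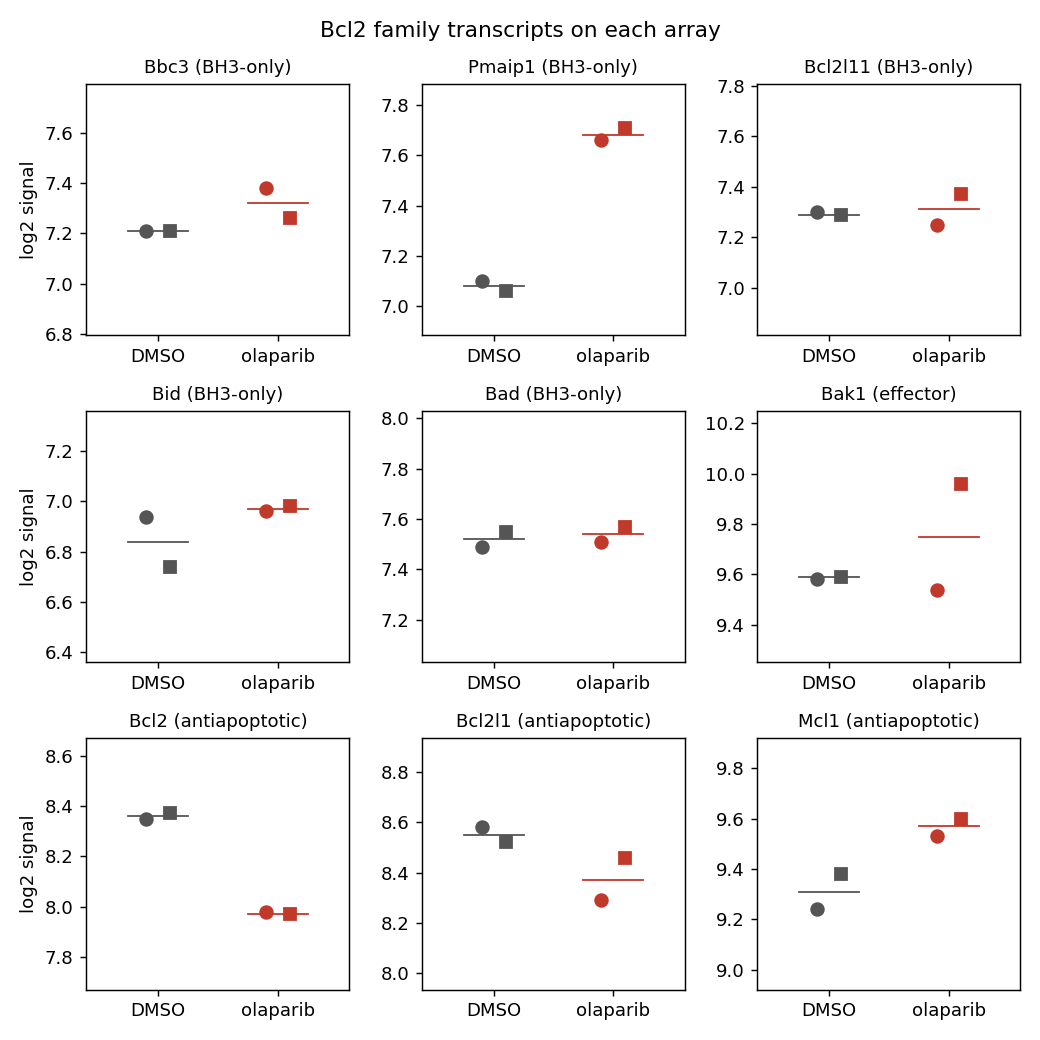
Log2 signal (y axis, each panel spanning 1 log2 unit around its own values) of the 9 measured members on each array, by group; circles are replicate 1, squares replicate 2, and lines are group means (n = 2 each). Pmaip1 sits at 7.06 and 7.10 with DMSO and at 7.66 and 7.71 with olaparib, and Bcl2 at 8.35 and 8.37 against 7.98 and 7.97; Bak1 is high on olaparib replicate 2 alone.

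Among the BH3-only genes, Pmaip1 had log2 values of 7.10 and 7.06 on the DMSO arrays and 7.66 and 7.71 on the olaparib arrays. Its protein is a selective antagonist of MCL1 and promotes the degradation of that protein. Both olaparib arrays lay well above both DMSO arrays, with an SD of 0.03 within each group (n = 2 each). The 95% confidence interval of the change was 0.44 to 0.77, or 1.36-fold to 1.70-fold, and Pmaip1 ranked 42 from the top of 13956 genes by the size of its rise. The change lay between 0.58 and 0.63 over 16 alternative settings, of which 15 kept it past the threshold. With 1 probe set for the gene, settings of filter, eBayes, rows and threshold could not move this size. When 1 fit held all 21704 probe sets of at least that signal, named or not, its adjusted p was 0.0576, and then 0 of the 9 members and 0.086% of the tested genes were called. Pmaip1 was dim: its values lay under the highest mean, 7.77, among 13 genes of liver, muscle, skin and other tissues unrelated to brain. That highest mean was of Apoa2 alone. The median of these genes was 6.39 and their 75th percentile 6.58, and all values of Pmaip1 lay above both. Values of the other 4 BH3-only genes also lay between 6.58 and 7.77, and the sizes of changes at such levels are less certain.

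Bbc3, which encodes PUMA and binds every antiapoptotic member, had values of 7.21 and 7.21 with DMSO and 7.38 and 7.26 with olaparib. The groups did not overlap, but the change of 0.11 (95% interval -0.06 to 0.27) did not pass (adjusted p = 0.536). Leaving out olaparib replicate 1 gave 0.05, and leaving out olaparib replicate 2 gave 0.16. Bid, the link between death receptors and mitochondria once caspase-8 has cut it, had values of 6.94 and 6.74 with DMSO and 6.96 and 6.98 with olaparib. Its change of 0.12 (interval -0.05 to 0.30, adjusted p = 0.464) rested on the lower DMSO array, since it was 0.02 without DMSO replicate 2 and 0.22 without DMSO replicate 1.

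Bcl2l11, which encodes BIM, a death inducer of neurons deprived of trophic support, had values of 7.30 and 7.29 with DMSO and 7.25 and 7.37 with olaparib. Its groups overlapped, and the change was 0.02 (interval -0.15 to 0.19, adjusted p = 0.944). Bad, which is held inactive by 14-3-3 proteins when growth factor kinases phosphorylate it, also overlapped, with 7.49 and 7.55 against 7.51 and 7.57 (change 0.02, interval -0.15 to 0.19, adjusted p = 0.96). Without olaparib replicate 2 the change was -0.04 in Bcl2l11 and -0.01 in Bad. Over the 5 BH3-only genes 1 rose, 0 fell and 4 did not pass, with a median change of 0.11. It was 0.05 without DMSO replicate 2. The mean of the 5 genes, taken from each gene's DMSO mean, was 0.16 and 0.19 on the olaparib arrays and within 0.02 of zero on the DMSO arrays. Pmaip1 carried most of it, as the mean of the other 4 genes was 0.06 and 0.08 on the olaparib arrays.

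Bak1 was the only effector measured. It encodes a pore-forming protein resident in the outer mitochondrial membrane. Its values were 9.58 and 9.59 with DMSO and 9.54 and 9.96 with olaparib, so 1 olaparib array was below both controls and the other above them. The change was 0.16 (interval -0.11 to 0.43, adjusted p = 0.575), and olaparib replicate 2 decided it. Without that array it was -0.04 (adjusted p = 0.842), and without olaparib replicate 1 it was 0.37 (adjusted p = 0.00724). No direction can be given for Bak1 from these arrays.

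The antiapoptotic genes did not change in 1 direction. Bcl2, which guards mitochondria and the endoplasmic reticulum and supports neuronal survival, had values of 8.35 and 8.37 with DMSO and 7.98 and 7.97 with olaparib. The groups were separated by far more than the SD within them, which was 0.01 or less, and the 95% interval of the change was -0.58 to -0.20. The change lay between -0.40 and -0.38 over the 16 settings and passed in 12. Settings of filter, eBayes, rows and threshold cannot move the change of a gene with 1 probe set. Its size was thus open mainly to normalization and to left-out arrays. The 4 settings in which Bcl2 missed the threshold were those without DMSO replicate 1 (adjusted p = 0.183) or DMSO replicate 2 (adjusted p = 0.208), median centring (adjusted p = 0.0635) and the fit of all probe sets (adjusted p = 0.141).

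Bcl2l1, which encodes BCL-XL, had values of 8.58 and 8.52 with DMSO and 8.29 and 8.46 with olaparib. Both olaparib arrays were below both controls, yet the change of -0.18 (interval -0.39 to 0.03) did not pass (adjusted p = 0.374). Leaving out olaparib replicate 1 gave -0.09, and leaving out olaparib replicate 2 gave -0.27. Mcl1, a short-lived protein that cells replace all the time, was higher on both olaparib arrays, with 9.24 and 9.38 against 9.53 and 9.60. Its change of 0.26 (SE 0.11, interval 0.02 to 0.49) had an unadjusted p of 0.0321 and an adjusted p of 0.204, and 19.1% of all genes tested had an unadjusted p under 0.05. It passed in 1 of the 16 settings, without olaparib replicate 1 (adjusted p = 0.0382), where 15.1% of all genes were called and 4 of the 9 members, Bak1 and Mcl1 among them. Over these 3 genes 0 rose and 1 fell, with a median of -0.18 (-0.09 without olaparib replicate 1). The class mean from the DMSO means was -0.14 and -0.06 on the olaparib arrays and within 0.02 of zero on the controls.

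**Figure D2:**
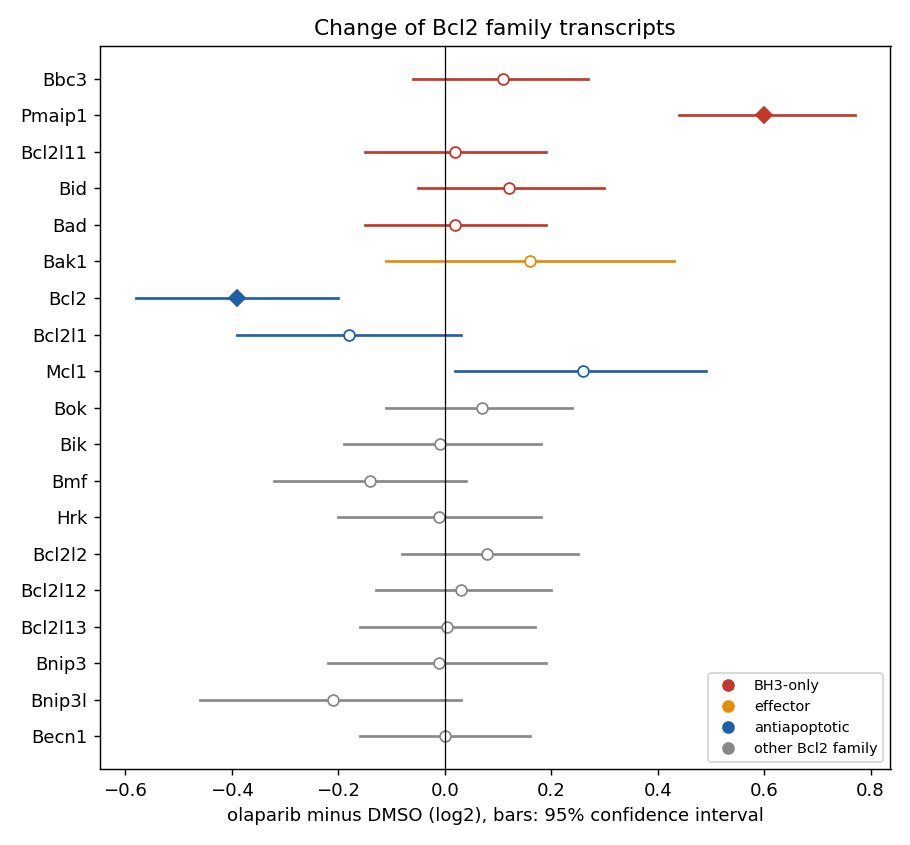
Change of each tested family transcript, olaparib minus DMSO on the log2 scale (x axis), with its unadjusted 95% confidence interval from limma (bars), coloured by class; filled diamonds passed an adjusted p of 0.05 and open circles did not. Pmaip1 at 0.60 and Bcl2 at -0.39 are the filled points, the Mcl1 interval of 0.02 to 0.49 lies above 0, and the 10 other family genes lie between -0.21 and 0.08.

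The 2 called members moved in opposite directions. The log2 ratio of Pmaip1 to Bcl2, taken from its DMSO mean, was 0.03 and -0.03 on the DMSO arrays and 0.97 and 1.02 on the olaparib arrays, a difference of 0.99. An exact two-sided permutation test over arrays gave p = 0.333, the smallest that 2 against 2 arrays allow. Any ratio that separates the groups gives this value, so the test cannot decide anything here. The pair was picked for its changes, so the ratio only describes them, and it does not set NOXA beside its target MCL1. The Mcl1 transcript was also higher with olaparib, by 0.26, without passing (limma, adjusted p = 0.204). Of the 6 proapoptotic genes measured, 6 had a change above 0, where 50.5% of all genes tested did, and 1 passed. The signs of Bak1, Bcl2l11 and Bad turned when 1 array was left out, so this count does not hold for every set of arrays. Of the 3 antiapoptotic genes, 2 had a change below 0. Whether the classes differ from each other was not tested.

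Markers of the cell types in these cultures moved as well, where 2.84% of all genes tested were called higher and 3.37% lower. Of 9 tested genes of immature neurons 0 rose and 3 fell, among them Dcx by 1.05 on the log2 scale, and the mean over all 10 measured markers was 7.69 to 7.71 on the DMSO arrays and 7.33 to 7.37 on the olaparib arrays. Of 8 stem and progenitor markers 1 fell, Gfap by 1.03, and the next lowest change was -0.38 in Egfr. In all, 6 had a change below 0 and 2 above it, Nes at 0.23 and Vim at 0.16, with a median of -0.14. Their mean, in which Gfap weighs most, was 10.31 to 10.34 with DMSO and 10.03 to 10.21 with olaparib. In bulk RNA fewer cells of a type and less RNA per cell cannot be told apart, and the part of these shifts in the fall of Bcl2 was not tested. Of 7 oligodendrocyte lineage markers 1 rose, Cspg4 by 0.33. Changes in that list were above 0 in 4 genes and below 0 in 3, the lowest being -0.23 in Pdgfra. Of 4 tested ependymal markers 0 passed. The means of microglial markers (6.36 to 6.46 over the arrays) and of endothelial and mural markers (6.35 to 6.46) lay at the median of 6.39 of the unrelated-tissue genes. The progenitor markers Fabp7 (12.62 to 12.82) and Vim (12.23 to 12.44) were bright on all arrays.

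The start regions of Bcl2 and Mcl1 are printed because these antiapoptotic genes had the largest changes of their class, in opposite directions, and because Atf4 and Atf3, which bind cAMP response elements, rose in the olaparib cultures. The sequences are RefSeq's for GRCm38.p6, 250 bases before to 50 after the annotated start, 5′ to 3′ on the gene's strand. Capitals mark the GC box GGGCGG and the core of the cAMP response element, TGACG, on either strand. Bcl2 lies at chr1:106714241-106714540 on the minus strand and Mcl1 at chr3:95658471-95658770 on the plus strand.
Bcl2: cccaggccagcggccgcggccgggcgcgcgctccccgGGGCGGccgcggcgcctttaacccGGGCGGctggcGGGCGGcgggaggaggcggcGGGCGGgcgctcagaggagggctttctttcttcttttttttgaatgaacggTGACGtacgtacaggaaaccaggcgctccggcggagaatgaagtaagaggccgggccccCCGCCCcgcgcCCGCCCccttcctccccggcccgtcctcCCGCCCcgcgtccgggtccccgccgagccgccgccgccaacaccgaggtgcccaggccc
Mcl1: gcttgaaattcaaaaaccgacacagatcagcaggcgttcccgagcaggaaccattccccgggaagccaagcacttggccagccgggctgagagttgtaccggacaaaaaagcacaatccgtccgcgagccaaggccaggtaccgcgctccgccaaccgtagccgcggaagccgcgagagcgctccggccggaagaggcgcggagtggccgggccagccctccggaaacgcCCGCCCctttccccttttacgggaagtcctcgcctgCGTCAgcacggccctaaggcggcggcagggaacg

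The Bcl2 region held 7 GC boxes and the Mcl1 region 1, and a GC box was present in 35.7% of all 32851 promoters of this length. Each held 1 TGACG core, which 20.8% of all promoters had. Neither had the full element TGACGTCA, found in 1.79%, or the E-box CACGTG, found in 7.15%. The pattern of the p53 half-site, searched by its name's consensus on both strands, was present in 8.36% of all promoters. Of the 15 regions listed for 9 of the members, 1 had it, that of Bax, whose transcript was not analysed. A match is a description of letters, not a site. Pmaip1 was left out of the listing and none of its regions is among these 15. The counts therefore say nothing on whether its promoter holds any of these motifs.

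Other genes of the family and its pathway were read from lists chosen with earlier results of these data known. Of 18 further family genes, 14 had a probe set of their own and 10 passed the filter. None of these 10 was called by limma, and 0 had an unadjusted p under 0.05, against 6.22% and 19.1% of all genes tested. Their median change was -0.0047, from -0.21 to 0.08. The smallest p belonged to Bnip3l, a mitophagy receptor (10.29 and 10.29 with DMSO, 10.00 and 10.16 with olaparib, change -0.21, adjusted p = 0.353), and to Bmf, a BH3-only gene (change -0.14, adjusted p = 0.428). The 4 measured genes under the filter were Bcl2a1c, Bcl2l10, Bcl2l14 and Bcl2l15.

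Upstream of the family, 1 of 9 tested genes of p53 and its regulators rose and 0 fell (median 0.04), against 2.84% of all genes tested called higher. Mdm2, the ligase that degrades p53 and is itself a p53 target, went from 9.37 and 9.47 to 9.77 and 9.91, a change of 0.42 (SE 0.11, adjusted p = 0.031). Trp53 was not analysed here. Of 18 tested p53 targets outside the family, 7 rose, against the same 2.84%, and 0 fell, with a median of 0.28. Leaving out DMSO replicate 1 or DMSO replicate 2 left 4 that rose, where 0.695% and 0.917% of all genes were called higher. Leaving out olaparib replicate 1 gave 12, where 9.13% were. Phlda3, an inhibitor of AKT, rose by 0.88, Plk2 by 0.51, Tnfrsf10b by 0.51, Gtse1 by 0.49, Perp, a membrane protein of cell adhesion, by 0.48, Polk, a translesion polymerase, by 0.45 and Sesn2, a stress-induced inhibitor of mTORC1 signalling, by 0.41. Their adjusted p lay between 0.000135 for Phlda3 and 0.0394 for Sesn2. The change of Sesn2 fell to 0.22 (adjusted p = 0.141) without olaparib replicate 2. This list overlaps one on which a rise was already known, so its count is no independent evidence. Its members Tnfrsf10b, Fas and Apaf1 are counted again in the lists below, and Cdkn1a and Gdf15 had no probe set of their own.

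Among 16 tested regulators of BH3-only genes other than p53, 3 rose and 0 fell, with a median of 0.14. Of all genes tested, 2.84% were called higher. Atf3 went from 7.04 and 7.06 to 7.56 and 7.54 (change 0.51, adjusted p = 0.000387). Atf4 changed by 0.55 (adjusted p = 0.0035) and Ddit3, which encodes CHOP, by 0.40 (adjusted p = 0.0218). In each of these genes both olaparib arrays were above both DMSO arrays, where the groups did not overlap in 47.1% of all genes tested. The list median moved when 1 array was dropped. It became 0.12 on dropping DMSO replicate 1 and 0.17 on dropping DMSO replicate 2. Dropping the first olaparib array raised it to 0.26, and dropping the second lowered it to 0.09. Which of these genes passed also depended on the arrays kept, as described below. The change of Ddit3 was 0.26 (adjusted p = 0.0604) without olaparib replicate 2.

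Downstream, 2 of 12 tested genes of the apoptosome and caspases rose and 0 fell (median 0.04). The share called higher over all genes tested was 2.84%, here and for the counts below. Casp8, the initiator caspase of death receptors, went from 6.84 and 6.94 to 7.29 and 7.35, a change of 0.43 (SE 0.08, adjusted p = 0.00175). Cycs, the cytochrome c gene, changed by 0.55 (adjusted p = 0.0259), but DMSO replicate 1 at 10.52 was lower than DMSO replicate 2 at 11.04. The change was 0.29 (adjusted p = 0.886) without the first of these arrays and 0.81 without the other. Cycs has processed pseudogenes, and signal from such copies was not told apart. Among 6 caspase inhibitors 1 rose and 0 fell. It was Cflar, which encodes the caspase-8 inhibitor c-FLIP, from 8.35 and 8.51 to 8.93 and 9.02 (change 0.55, SE 0.10, adjusted p = 0.00264). Averaging its probe sets gave 0.33 (adjusted p = 0.0347). Cflar and Casp8 neighbour each other in the RefSeq table with 1 annotated non-coding gene between them. Among 9 death receptors and adaptors 2 rose and 0 fell: Tnfrsf10b, a TRAIL receptor gene, from 7.63 and 7.73 to 8.19 and 8.19, and Tnfrsf1a, the TNF receptor, by 0.45 (adjusted p = 0.0479). Leaving out olaparib replicate 1 gave 0.68 for Tnfrsf1a, and leaving out olaparib replicate 2 gave 0.22 (adjusted p = 0.156). Of the 15 genes called in these lists, Atf3, Casp8, Gtse1 and Perp had means under 7.77, the mean of Apoa2, as Pmaip1 did.

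The remaining lists held no called gene. Their counts of unadjusted p under 0.05 in limma stand beside 19.1% of all genes tested. Of 10 partners at the outer mitochondrial membrane 0 passed and 3 had an unadjusted p under 0.05 (median 0.09). The smallest p was that of Vdac2, a channel that retains BAK at mitochondria, at 0.36 (adjusted p = 0.0824), followed by Tspo at 0.24 (adjusted p = 0.12). Of 7 genes of Mcl1 protein turnover 0 passed and 1 had an unadjusted p under 0.05 (median 0.11). Btrc, a ubiquitin ligase subunit, was at -0.26 (adjusted p = 0.11), and Fbxw7, another, at 0.22 (adjusted p = 0.319). Of 13 kinases and 14-3-3 proteins that act on BAD or BIM 0 passed, also 0 without adjustment, and Pim3 was at -0.15 (adjusted p = 0.316) and Ywhag at 0.21 (adjusted p = 0.335).

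**Figure D3:**
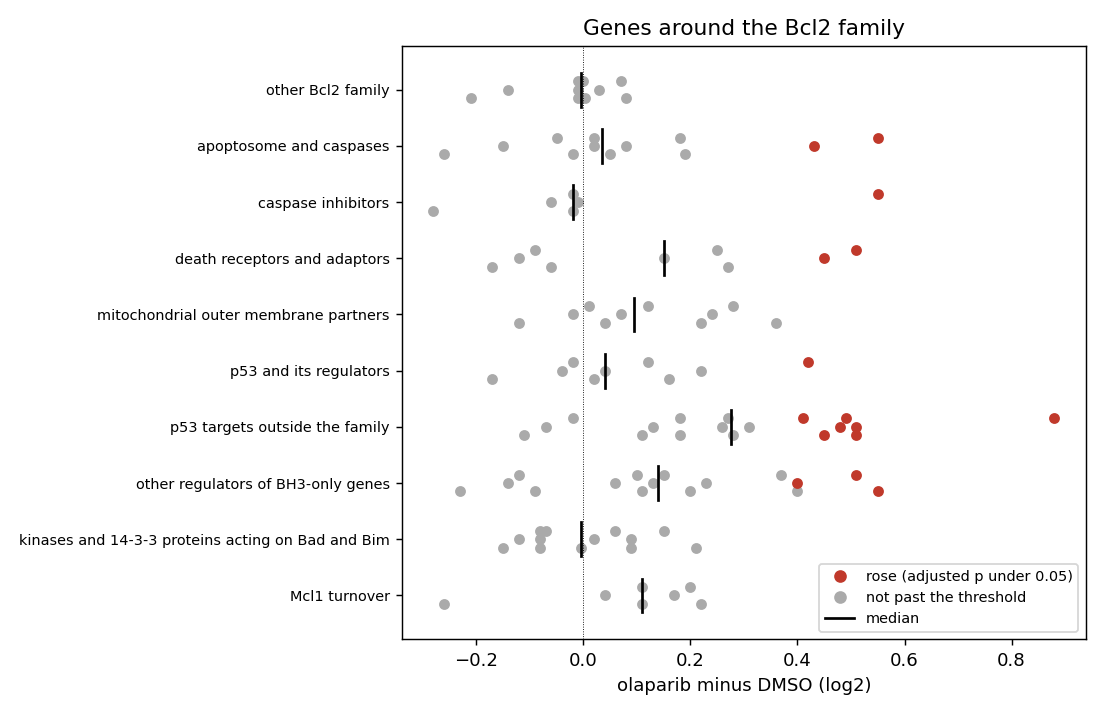
Change of every tested gene of the surrounding lists, olaparib minus DMSO on the log2 scale (x axis), by list (rows); red points rose at an adjusted p under 0.05, grey points did not pass, and black bars are list medians. Red points lie between 0.40 (Ddit3) and 0.88 (Phlda3), none lies below 0, and 7 are p53 targets outside the family.

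Calls of the pathway genes depended on the arrays and on the rows that share a fit. When all probe sets shared the fit, 0 of the 15 genes called in these lists passed; the adjusted p was then 0.0653 for Phlda3 and 0.0671 for Atf3. Without DMSO replicate 1, Atf4, Cflar, Cycs, Ddit3, Mdm2, Plk2, Sesn2, Tnfrsf10b and Tnfrsf1a did not pass. Without DMSO replicate 2, Atf4, Ddit3, Mdm2, Plk2, Polk, Sesn2 and Tnfrsf1a did not, and without olaparib replicate 2, Ddit3, Sesn2 and Tnfrsf1a did not. With no filter Cycs, Ddit3, Sesn2 and Tnfrsf1a did not pass, nor did Ddit3, Mdm2, Sesn2 and Tnfrsf1a under median centring. Atf3, Casp8, Gtse1, Perp and Phlda3 passed in 15 of the 16 settings. List medians also moved with 1 array. The death receptor median was 0.15, but 0.22 without DMSO replicate 1 and 0.06 without DMSO replicate 2, and that of the apoptosome and caspases was 0.09 without DMSO replicate 1. Leaving out olaparib replicate 1 gave a median of 0.26 for the other regulators of BH3-only genes, 0.17 for the outer membrane partners and 0.01 for p53 and its regulators. For the Mcl1 turnover genes, leaving out DMSO replicate 2 gave a median of 0.18 and leaving out olaparib replicate 2 gave 0.05.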

How the data were processed

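Total RNA (40 ng) was amplified, labelled with biotin and hybridised, per the labels' protocols. The deposited table holds the authors' log2 values for 34760 probe sets on 4 arrays. Background correction, normalization, summarisation and any batch are not given in the sources used here. The 21640 probe sets naming 1 gene gave 19937 genes, named through RefSeq's GRCm38.p6 gene table (19855 matched). A gene was read from its probe set with the highest mean. Genes whose mean exceeded its 30th percentile (13956) entered 1 limma 3.58.1 fit (R 4.3.3; lmFit, then eBayes with a trend). Tests were two-sided and adjusted by Benjamini-Hochberg over those genes. All adjusted p-values come from limma, and 95% intervals are unadjusted. Only 2 residual degrees of freedom stand behind each gene, and the prior adds 18.1. Precision is limited by the number of arrays; array medians were 6.60 to 6.68. All 10 members are named whatever their values. In each other list the genes past the threshold are named, or else the 2 with the smallest p. The members and lists were chosen with earlier results of these data known, and the promoter regions and motifs after seeing the values. The fit was tested on simulated data whose spreads were drawn from its own fitted prior, alike in both groups and without array effects. That test therefore cannot tell how the fit does where real arrays depart from these assumptions. Replicate numbers follow accession order and only name arrays, so no fit with a block was run. Alternatives were 16 settings of filter, normalization, variance model, rows, threshold and arrays left out. Figures used matplotlib 3.10.9.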

Additional observations from a re-analysis of the deposited data

How the results depend on the processing

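Over 16 settings the changes of Pmaip1, Bbc3, Bid, Bcl2, Bcl2l1 and Mcl1 kept their sign. Each measured member has 1 probe set, so only normalization, weighting of arrays or left-out arrays could move its change. The looser threshold could lose no call. Pmaip1 kept its call in 15, its exception being the fit of all probe sets (change 0.60, adjusted p = 0.0576), where 0 members, 1 higher gene and 11 lower genes were called. That fit also lost Bcl2 (-0.39), as did median centring (-0.39), which left 1 member called. With 1 array left out, the change of Bcl2 lay between -0.40 and -0.38, of Bak1 between -0.04 and 0.37, of Mcl1 between 0.19 and 0.33, of Bcl2l11 between -0.04 and 0.08 and of Bad between -0.01 and 0.05. The signs of Bak1 and Bcl2l11 reversed without olaparib replicate 2 (-0.04 each), and that of Bad without DMSO replicate 1 or olaparib replicate 2 (-0.01 each). Over the same 4 settings members called ranged from 1 to 4, genes called higher from 97 to 1274 and lower from 161 to 1032, and the BH3-only median from 0.05 to 0.11. Genes called higher were 257 with no filter and 606 at an adjusted p of 0.1. Genes called lower were 774 under quantile normalization, 732 under cyclic loess and 715 at an adjusted p of 0.1. The cause of these differences was not tested. With 1 array left out, its group's lone array is assumed to vary like the other group, and the median SD within a group was 0.0483 with DMSO against 0.0767 with olaparib. Values near 6.39, the median of unrelated-tissue genes, carry little signal over background.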
